A study of Mus musculus with 48 samples.

Results

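The genes described are those of the social neuropeptides oxytocin (Oxt) and vasopressin (Avp) and of 3 of their receptors, Oxtr, Avpr1a and Avpr1b. They were chosen by gene symbol, as 5 of the 48440 genes in a table of RNA sequencing read counts from the mouse hippocampus, and all 5 passed the filter on low counts. The table held 48 libraries from female C57BL/6 offspring, 3 months old, with 1 library per animal. Controls (C) came from undisturbed dams, and prenatally stressed offspring came from dams restrained from embryonic day 13 to 17. The stressed offspring had been divided by their behaviour in a sociability test into socially affected (SA; susceptible in the labels) and socially unaffected (SU; resilient in the labels). The 6 groups were C (n = 8), SA (n = 8) and SU (n = 8) labelled 5-Htt+/+, and C (n = 7), SA (n = 8) and SU (n = 9) labelled 5-Htt+/-, where 5-Htt is the serotonin transporter gene Slc6a4. The wildtype dams had been mated with 5-Htt+/- males. The hippocampus had been taken after a series of behavioural tests and a later test of the corticosterone response. In that later test the offspring themselves, controls included, were restrained, with blood taken before and after. RNA came from 1 portion of the pooled, powdered hippocampi of both hemispheres. The labels give neither the litter nor the stage of the oestrous cycle.

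Oxytocin and vasopressin are short peptides cut from precursors that are made mainly by large neurons of the paraventricular and supraoptic nuclei of the hypothalamus. They are released into the blood at the posterior pituitary and, from axons, into other parts of the brain, the hippocampus among them. There they act on receptors that couple to Gq proteins and phospholipase C and shape social recognition, sociability and the response to stress. The receptor genes are expressed by the hippocampal cells that receive the peptides. Oxtr is found in interneurons and pyramidal cells, and Avpr1b is known for its expression in the CA2 field, a small region needed for social memory.

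Oxt (ENSMUSG00000027301.7) lies on the + strand of chromosome 2 from 130576173 to 130577054 (GRCm38), and Avp on the - strand from 130580620 to 130582554. The genes face each other tail to tail with 3565 bases between them. Oxtr lies on the - strand of chromosome 6 (112473683 to 112489943), Avpr1a on the + strand of chromosome 10 (122448499 to 122453453) and Avpr1b on the + strand of chromosome 1 (131599239 to 131612000). None overlapped another gene of the table. RefSeq promoter windows (GRCm38.p6) matched 4 of the 5 genes by symbol. The 250 bases before the start of the peptide genes are shown because the levels of Oxt and Avp were correlated over the libraries. The windows are chr2:130575919-130576168 (+ strand) for Oxt and chr2:130582589-130582838 (- strand) for Avp, 5′ to 3′, with every match to AGGTCA (the half-site of nuclear receptors), TGACGTCA (the cAMP response element) or CACGTG (an E-box) in capitals.
Oxt: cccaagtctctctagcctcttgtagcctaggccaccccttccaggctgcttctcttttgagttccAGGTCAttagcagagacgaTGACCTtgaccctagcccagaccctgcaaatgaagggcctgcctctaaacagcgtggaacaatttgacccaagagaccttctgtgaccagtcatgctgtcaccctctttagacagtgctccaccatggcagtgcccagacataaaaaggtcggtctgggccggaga
Avp: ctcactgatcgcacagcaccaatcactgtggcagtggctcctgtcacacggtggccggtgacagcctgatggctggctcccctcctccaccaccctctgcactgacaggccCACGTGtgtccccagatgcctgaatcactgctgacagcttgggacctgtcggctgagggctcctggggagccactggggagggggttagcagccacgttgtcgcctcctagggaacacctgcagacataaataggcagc
The Oxt window held AGGTCA at -185 to -180 and its reverse complement TGACCT at -166 to -161, counted from the start, and no match to the other motifs. The Avp window held CACGTG at -139 to -134 only. The Oxtr window held both AGGTCA (-98 to -93) and CACGTG (-43 to -38), and the Avpr1a window held none of the 3 motifs. The motifs do not overlap one another. Searched on both strands, AGGTCA was present in 14.02%, CACGTG in 6.02% and TGACGTCA in 1.55% of 32851 windows of the same length. A match describes these letters only, and no binding was measured.

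Total counts per library ranged from 16488405 to 38213754 (median 24125647.5). Slc6a4 separated the genotype labels without overlap, with the higher level under the label of the transporter-deficient offspring. Its level was 12.8 to 17.0 CPM (reads per 1000000 of the scaled library) in the 24 libraries labelled 5-Htt+/- and 0 to 0.261 CPM in the 24 labelled 5-Htt+/+, so that groups are named by their labels throughout and no direction of a genotype effect is drawn from them. The libraries labelled +/- stood 6.72 log2 units higher (SE 0.08, adjusted p = 1.78e-52), and the reason was not tested. The 7 markers of hippocampal neurons summed to 601 to 856 CPM per library. Of 15 hypothalamic markers, 14 together reached 3.12 to 9.44 CPM. The other one, Agrp, was at 92.9 to 128 CPM, and its annotated span overlaps 6 other genes. Transthyretin (Ttr), which marks the choroid plexus, was at or above 100 CPM in 20 libraries and lower in 28. On the first principal component (13.4% of the variance) 6 libraries lay far to one end, among them 3 of the 7 C libraries labelled 5-Htt+/-.

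The receptor Oxtr was by far the most strongly expressed of the 5 genes, and both peptide genes were present only as a few reads. Per kilobase of exon, Oxtr averaged 1.95 ± 0.270 CPM per kb (SD, n = 48), higher than 65.0% of the 46712 genes with reads and annotated exons. Avp averaged 0.461 ± 0.469, Oxt 0.246 ± 0.264, Avpr1b 0.162 ± 0.0584 and Avpr1a 0.0528 ± 0.0314 CPM per kb on the same scale. The neighbours Avp and Oxt, and Oxt and Avpr1b, differed in this level by less than the SD over libraries. The sources used here do not say whether intronic reads entered the counts, so the level per kb is approximate. Total reads per library were 0 to 12 for Oxt, 0 to 23 for Avp, 125 to 410 for Oxtr, 0 to 9 for Avpr1a and 5 to 34 for Avpr1b. No Oxt read was seen in 10 libraries, where 3 reads, the limit that a count of 0 allows, would correspond to 0.0985 to 0.152 CPM depending on the library. No Avp read was seen in 4, where that limit was 0.103 to 0.180 CPM. Over the 48 libraries the coefficient of variation of CPM was 13.9% for Oxtr, 36.0% for Avpr1b, 59.5% for Avpr1a, 102% for Avp and 107% for Oxt. Counting error alone at the mean number of reads would give 6.57%, 25.0%, 53.9%, 39.3% and 56.6% in the same order. Intervals and limits from read numbers cover counting error only.

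**Figure D1:**
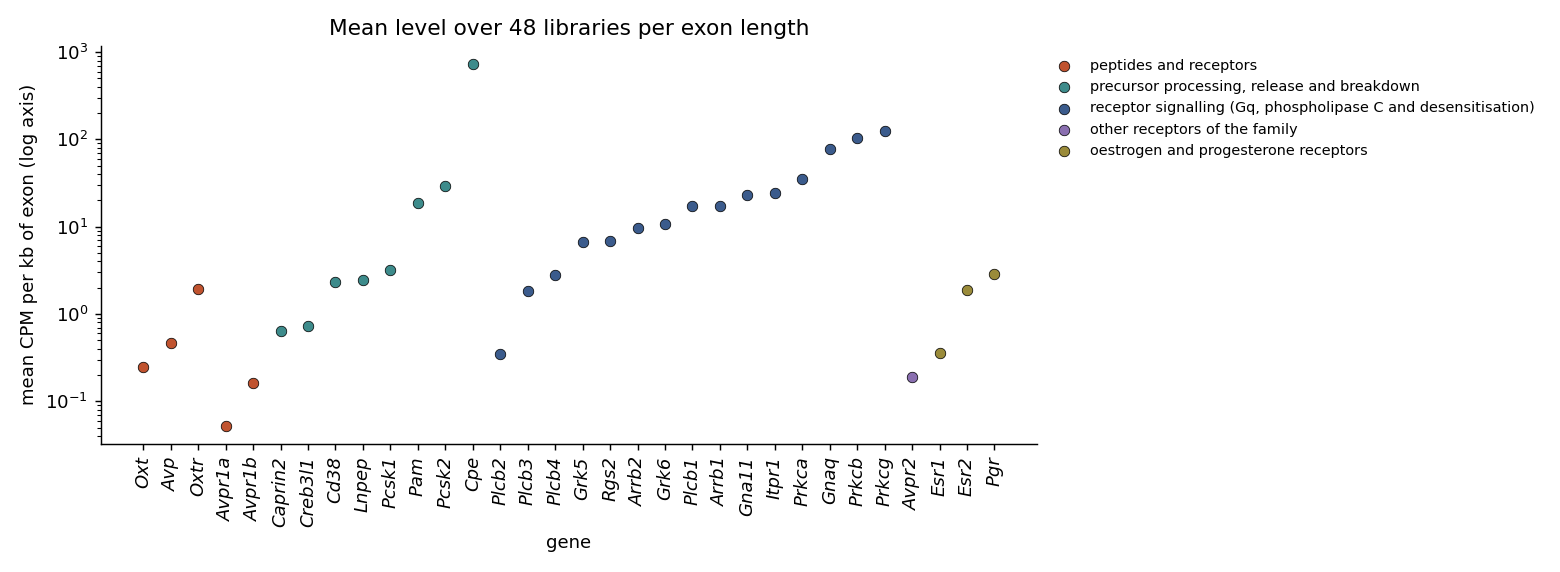
Mean level over the 48 libraries in CPM per kb of exon (log axis) of the 5 peptide and receptor genes and of the 27 pathway genes, ordered by level within each pathway list. Oxtr stands at 1.95 CPM per kb and Avpr1a, the lowest point, at 0.0528.

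None of the 5 genes was called in any contrast at an adjusted p under 0.05 in edgeR's quasi-likelihood test. Across all 31208 genes tested, the share called was 0.0128% for SA against C and 0.0192% for SU against C labelled 5-Htt+/+. It was 0.0288% for SA against C and 0.016% for SU against C labelled 5-Htt+/-, and 0.0224% between the genotype labels. For any difference among the 6 groups it was 0.0609%. It was 0% for SA against SU under either label and 0% for the three-way contrast, which is the SA to SU difference labelled 5-Htt+/+ minus that labelled 5-Htt+/-. It was also 0% for the differences of the SA and of the SU effect between labels, contrasts that were added after the data had been seen. Of 55 tests of the 5 genes (11 contrasts each), 13 had an unadjusted p under 0.05 with this test, 12 with edgeR's likelihood ratio test and 10 with DESeq2, which also called none. Such p-values were not spread evenly over contrasts. Of all genes tested, 12.1% and 15.5% had an unadjusted p under 0.05 for SA and SU against C labelled 5-Htt+/-, where 4 of the 13 fell. For the same contrasts labelled 5-Htt+/+ it was 3.07% and 3.37%, where 0 and 1 fell. For SA against SU it was 3.9% labelled 5-Htt+/+, where 2 fell, and 3.79% labelled 5-Htt+/-, where 1 fell. For any difference among the 6 groups it was 7.08%, where 2 fell. For the differences of the SA and of the SU effect between labels it was 5.21% and 5.65%, where 1 and 2 fell.

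The peptide genes had their highest mean in the C libraries labelled 5-Htt+/-. Oxt had reads in all 7 of them. Their Oxt level was 0.0955 CPM at the lowest, 0.206 at the median and 0.589 at the highest, with a mean of 0.296 ± 0.179 (SD, n = 7). In SA labelled 5-Htt+/- it was 0 at the lowest, 0.0744 at the median and 0.233 at the highest, with a mean of 0.0883 ± 0.0834 (n = 8). In SU labelled 5-Htt+/- it was 0, 0.0529 and 0.283, with a mean of 0.0853 ± 0.0891 (n = 9). The C libraries sat above most SA and SU libraries under this label, but the ranges overlapped. The fitted Oxt difference was -1.71 log2 units for SA against C (SE 0.53, adjusted p = 0.26) and -1.74 for SU against C (SE 0.52, adjusted p = 0.13). The 2 comparisons share their controls. Two-sided exact permutation tests of the mean log2 CPM, unadjusted over 30 such tests, gave p = 0.00901 for SA and p = 0.00524 for SU against C.

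Labelled 5-Htt+/+, the order of the groups in Oxt was another one, with the lowest mean in C. Oxt in the C libraries was 0 at the lowest, 0.0590 at the median and 0.189 CPM at the highest (mean 0.0589 ± 0.0647, n = 8), with no read in 3. The SA libraries ran from 0 over a median of 0.0979 to 0.301 CPM (mean 0.0949 ± 0.102, n = 8), again with no read in 3. All 8 SU libraries had reads, from 0.0488 over a median of 0.143 to 0.508 CPM (mean 0.197 ± 0.180). The SU mean rested in part on replicates 5 and 8, at 0.445 and 0.508 CPM, and the ranges of all 3 groups overlapped. The fitted difference of SU against C was 1.78 log2 units (SE 0.60, adjusted p = 0.998, exact permutation p = 0.0339), and that of SA against SU was -1.19 (SE 0.57, adjusted p = 0.999, exact permutation p = 0.153). For SA against SU, the unadjusted p was under 0.05 in 46 of 58 other fits. In the main test, 2 of the 5 genes had such a p in this contrast, Oxt and Avpr1a. In the likelihood ratio test, DESeq2 and the earlier quasi-likelihood form it was 1 gene each. Replicates 5 and 8 were also the 2 SU libraries of this label with Ttr at or above 100 CPM. Over the libraries with Ttr under 100 CPM alone, a choice made after seeing the data, the Oxt difference was 0.83 for SU against C and -0.46 for SA against SU. Of this label, 5 C, 3 SA and 6 SU libraries were under that limit. The part of choroid plexus RNA in the result was not tested further. For SA against C the fitted difference was 0.60 (95% interval -0.87 to 2.06). Ordered by mean, Oxt ran from C labelled +/- over SU, SA labelled +/+, SA and SU labelled +/- to C labelled +/+, and every pair of neighbours in this order differed by less than the larger SD.

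Avp, the gene of the vasopressin precursor, was likewise highest in the C libraries labelled 5-Htt+/-. They ran from 0.143 over a median of 0.422 to 1.11 CPM (mean 0.538 ± 0.385, n = 7). The SA libraries of this label ran from 0 over 0.106 to 0.330 CPM (mean 0.127 ± 0.0945, n = 8), and the SU libraries from 0 over 0.141 to 0.412 CPM (mean 0.175 ± 0.138, n = 9). Of the C libraries, 4 lay above every SA and SU library of this label, and the other 3 lay within the range of the stressed offspring. The fitted difference was -1.88 log2 units for SA against C (SE 0.57, adjusted p = 0.26, exact permutation p = 0.00404) and -1.55 for SU against C (SE 0.53, adjusted p = 0.18, exact permutation p = 0.0172). These comparisons, too, share their controls. Labelled 5-Htt+/+, Avp was at 0.315 ± 0.328 CPM in C, 0.186 ± 0.179 in SA and 0.301 ± 0.275 in SU (n = 8 each). The C libraries of that label spread from 0.0506 to 0.991 CPM, wider than the differences between the groups. No Avp contrast under that label had an unadjusted p below 0.05. Its fitted differences there ran from -0.88 for SA against SU to 0.04 for SU against C. By mean, Avp ran from C labelled +/- over C, SU and SA labelled +/+ to SU and SA labelled +/-, with all neighbours closer than the larger SD.

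**Figure D2:**
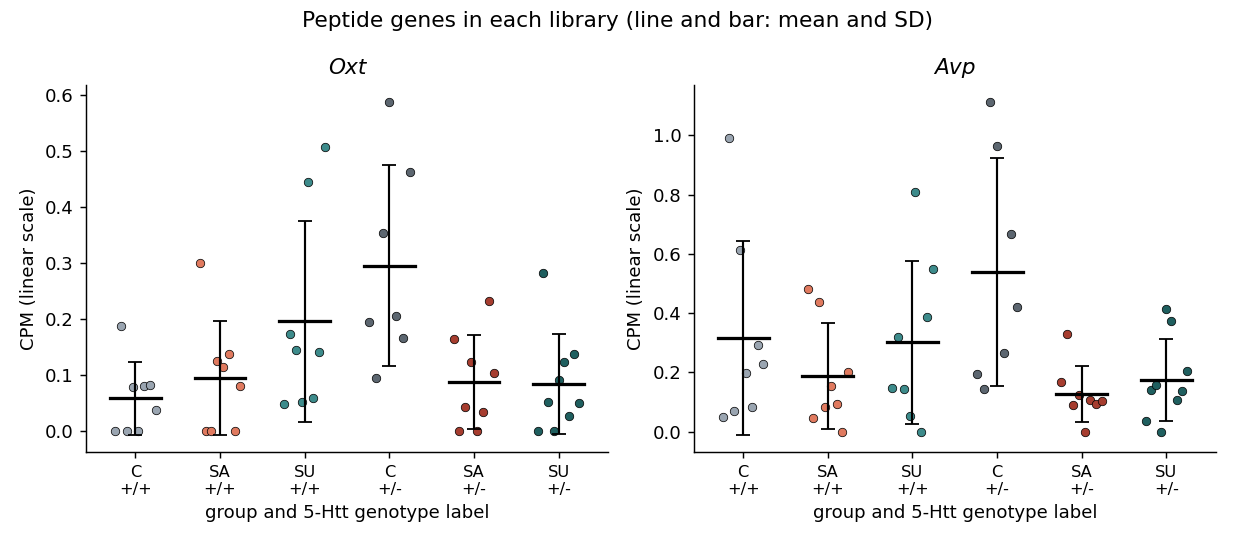
Oxt and Avp in CPM (linear scale, y) in each of the 48 libraries (points) by group and 5-Htt label (x), with the group mean (line) and SD (bar). The C libraries labelled +/- have the highest means, 0.296 CPM for Oxt and 0.538 CPM for Avp, and overlap with the other groups.

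The peptide differences labelled 5-Htt+/- kept their direction without any single library. Leaving out each of the 48 libraries in turn kept Oxt between -2.03 and -1.49 for SA against C and between -2.16 and -1.53 for SU against C, and Avp between -2.30 and -1.61 and between -1.80 and -1.29. Without the 6 libraries at the end of the first principal component, 3 of them among these controls, the Oxt differences were -1.52 and -1.72 and the Avp differences -1.82 and -1.46. The same controls had a lower share of mitochondrial reads, 3.43% to 5.56% with a median of 4.46%, where the medians of the other 5 groups were 5.04% to 5.37%. Its part in the result was not tested. Under 100 CPM of Ttr were 6 C, 5 SA and 3 SU libraries labelled 5-Htt+/-, so this subset is small and uneven. With libraries under 100 CPM of Ttr only, Oxt differed by -1.52 and -2.004 and Avp by -1.70 and -2.04. In this bulk tissue, fewer expressing cells and less RNA per cell cannot be told apart. The summed hypothalamic markers without Agrp overlapped between all 6 groups, with medians from 3.57 CPM (SA labelled +/-) to 4.39 CPM (C labelled +/-). In the fit, 13 of the 15 hypothalamic markers could be tested and none was called. Their median difference was -0.45 log2 units for SA against C labelled 5-Htt+/- (range -0.90 to 0.07), with 2 genes lower at an unadjusted p under 0.05, Pmch (-0.90) and Cartpt (-0.80, SE 0.24, adjusted p = 0.26). Of all genes tested, 12.1% reached that level in this contrast. For SU against C of that label the median was -0.19 (range -0.85 to 0.70), with Pmch at -0.85 (SE 0.33, adjusted p = 0.23) as the 1 gene below that level, which 15.5% of all genes tested reached. Oxt and Avp had -1.71 and -1.88 in the first of these contrasts and -1.74 and -1.55 in the second. Labelled 5-Htt+/+, the median of the list was -0.18 for SA against C, with Oxt at 0.60 and Avp at -0.84. It was -0.06 for SU against C, with Oxt at 1.78 and Avp at 0.04. For SA against SU it was 0.05 labelled 5-Htt+/+, with Oxt at -1.19 and Avp at -0.88. Labelled 5-Htt+/- it was -0.08, with Oxt at 0.04 and Avp at -0.33. For SA against C labelled 5-Htt+/-, the medians of the other marker lists ran from -0.83 (pituitary, 5 genes tested) to 0.46 (choroid plexus). The list of CA2 pyramidal neurons had -0.20 there, with 3 of 7 genes lower at an unadjusted p under 0.05. The hypothalamic markers include the developmental regulators of the peptide neurons, Otp and Sim1. Otp was at 0 to 0.361 CPM (mean 0.0768, no read in 7 libraries). Sim1 was at 0 to 0.435 CPM (mean 0.207, no read in 1 library). Over the same 48 libraries Oxt averaged 0.132 CPM and Avp 0.266 CPM. The mean log2 level of the hypothalamic markers without Agrp had a Spearman rho of 0.16 with Oxt and of 0.26 with Avp over the 48 libraries. The choroid plexus list had -0.02 and 0.19, and the list of CA2 pyramidal neurons had 0.31 and 0.24. The part of tissue from next to the hippocampus in the peptide levels was not tested.

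The levels of Oxt and Avp were correlated over libraries. Reads of both genes were present in 37 of 48 libraries, of neither in 3, of Avp alone in 7 and of Oxt alone in 1. Over the 48 libraries log2 CPM (prior count 2) had a Pearson r of 0.64 (permutation p = 2e-05, adjusted p = 0.0002) and a Spearman rho of 0.58 (permutation p = 1e-05, the smallest the 100000 resamples can give, adjusted p = 0.0001), adjusted over the 10 pairs of genes. With group means removed the values were r = 0.60 and rho = 0.56, and without the 2 libraries farthest from the median of Oxt they were r = 0.59 and rho = 0.53. Within groups rho ran from 0.08 in SA to 0.64 in C labelled 5-Htt+/-, and from 0.41 in SA to 0.76 in C labelled 5-Htt+/+. The labels name no sequencing batch, so that no value within batches was computed. Total counts had a rho of -0.17 with Oxt and 0.03 with Avp. In none of the other 9 pairs was the adjusted permutation p under 0.05, and their rho ran from -0.21 (Avpr1a and Avpr1b) to 0.14 (Oxt and Avpr1a). Between peptide and receptor genes, rho was 0.07 for Oxt and Oxtr, 0.04 for Avp and Avpr1a and -0.08 for Avp and Avpr1b.

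**Figure D3:**
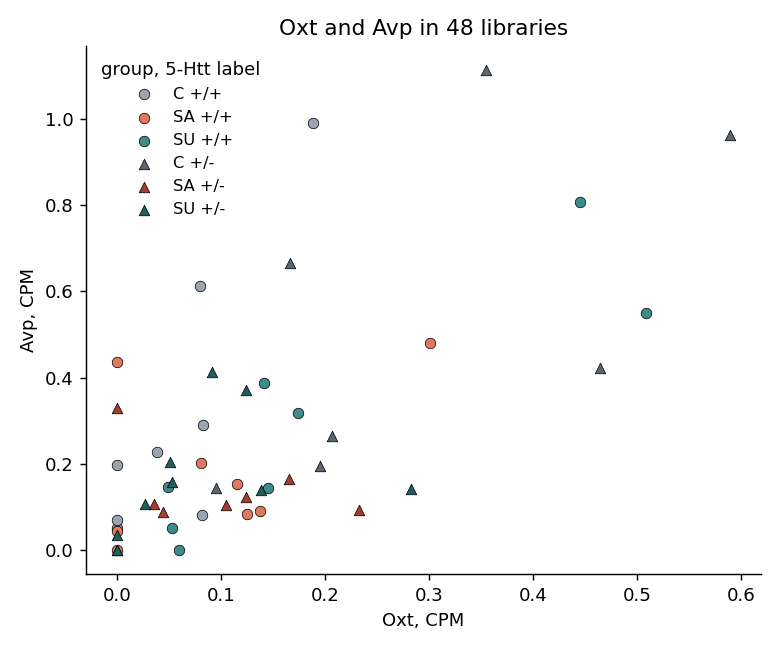
Oxt (x) against Avp (y), both in CPM, in the 48 libraries, with circles for the label 5-Htt+/+ and triangles for 5-Htt+/-. Libraries high in Oxt were mostly also high in Avp (Spearman rho 0.58), and points from several groups lie in the upper range.

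Oxtr, the oxytocin receptor, was close to 9 CPM in all groups. The lowest, median and highest level was 6.84, 8.97 and 12.3 CPM in C, 8.17, 9.21 and 10.4 in SA and 7.37, 9.66 and 11.1 in SU labelled 5-Htt+/+. It was 6.69, 9.89 and 10.5 CPM in C, 6.99, 9.58 and 11.9 in SA and 7.86, 8.999 and 11.1 in SU labelled 5-Htt+/-. The highest mean, 9.503 ± 1.22 CPM in SU labelled +/+, and the lowest, 9.11 ± 1.06 in SU labelled +/-, differed by less than either SD. Fitted differences between pairs of groups under 1 label ran from -0.04 to 0.05 log2 units, and their 95% intervals lay between -0.25 and 0.25. The difference between the labels was 0.00 (95% interval -0.12 to 0.12). Of the 5 genes, Oxtr had the most reads and the narrowest intervals.

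Avpr1a, the vasopressin receptor most widespread in the brain, had a higher mean in SA than in SU under both labels. Labelled 5-Htt+/+, SA libraries ran from 0.0872 over a median of 0.182 to 0.311 CPM (mean 0.187 ± 0.0623, n = 8) and SU libraries from 0 over 0.0750 to 0.145 CPM (mean 0.0749 ± 0.0484, n = 8). Labelled 5-Htt+/-, SA libraries ran from 0.0994 over 0.187 to 0.320 CPM (mean 0.197 ± 0.0867, n = 8) and SU libraries from 0 over 0.119 to 0.188 CPM (mean 0.105 ± 0.0735, n = 9). Every SA library had at least 2 reads, while SU had 3 libraries with none, and the ranges overlapped under both labels. The fitted difference was 1.18 log2 units labelled +/+ (SE 0.45, adjusted p = 0.999, exact permutation p = 0.00155) and 0.80 labelled +/- (SE 0.39, adjusted p = 0.9995, exact permutation p = 0.0399). For the label +/-, the unadjusted p was under 0.05 in 45 of 58 other fits. DESeq2, the earlier quasi-likelihood form and the replicate block were among the fits where it was not. These 2 comparisons share no library. The difference between them was 0.38 (95% interval -0.81 to 1.58, adjusted p = 0.99996). Controls lay between SA and SU, at 0.143 ± 0.0927 CPM labelled +/+ (n = 8) and 0.143 ± 0.0843 labelled +/- (n = 7). In the order SA labelled +/-, SA labelled +/+, C labelled +/+, C labelled +/-, SU labelled +/-, SU labelled +/+, neighbours differed by less than the larger SD. These levels rest on 0 to 9 reads per library.

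Avpr1b, the vasopressin receptor known from CA2 neurons and from pituitary corticotrophs, had reads in all 48 libraries. Its mean was 0.544 ± 0.184 CPM in C, 0.649 ± 0.123 in SA and 0.640 ± 0.240 in SU labelled 5-Htt+/+ (n = 8 each). Labelled 5-Htt+/-, it was 0.727 ± 0.275 in C (n = 7), 0.623 ± 0.225 in SA (n = 8) and 0.733 ± 0.324 in SU (n = 9). The highest and the lowest mean differed by less than the larger SD. Single libraries ranged from 0.236 CPM in C labelled +/+ to 1.41 CPM in SU labelled +/-. The fitted differences between pairs of groups under 1 label ran from -0.22 to 0.25, with 95% intervals between -0.72 and 0.77. Markers of CA2 pyramidal neurons, such as Rgs14, Amigo2 and Pcp4, were present in every library, and their mean log2 level had a Spearman rho of 0.44 with Avpr1b (n = 48), against 0.31 with Oxt, 0.24 with Avp, 0.15 with Oxtr and 0.00 with Avpr1a. The list of hippocampal neurons had a rho of 0.34 and that of inhibitory interneurons of 0.26 with Avpr1b, and no difference between these values was tested. The pituitary list, whose hormone Prl reached 44.9 CPM in 1 SA library labelled +/+, had a rho of -0.19 with Avpr1b.

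**Figure D4:**
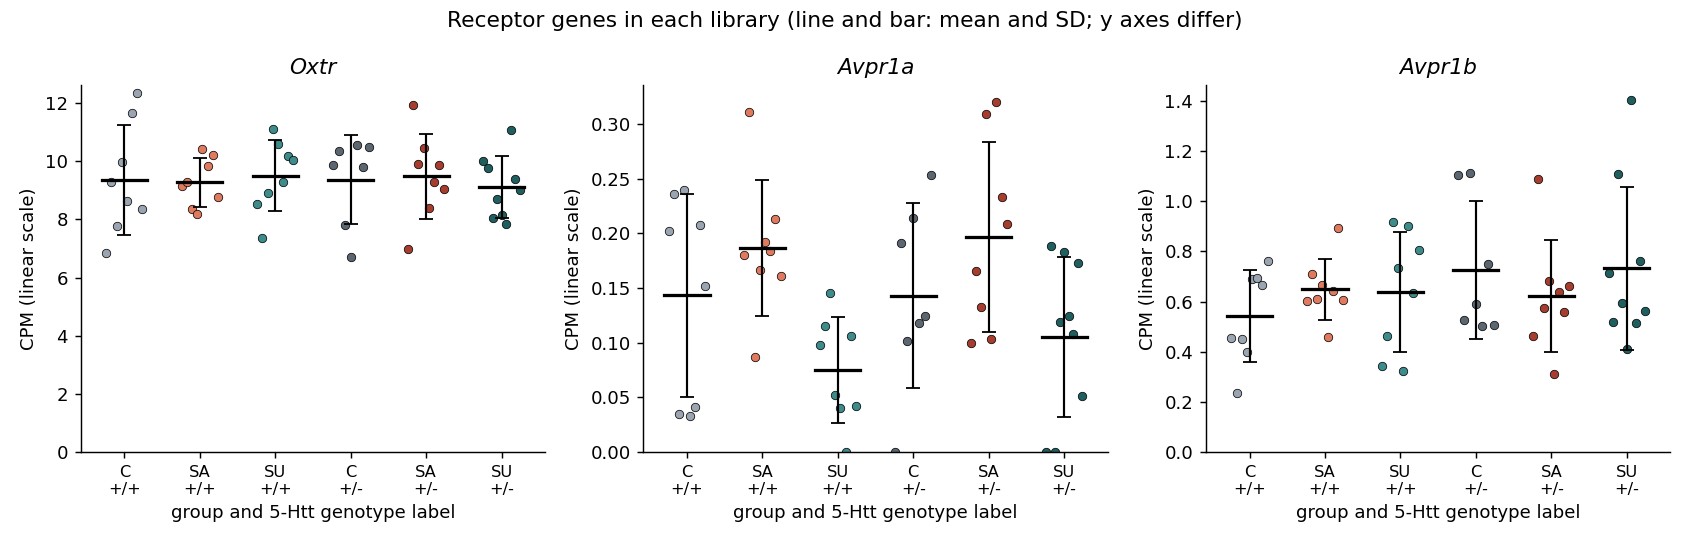
Oxtr, Avpr1a and Avpr1b in CPM (linear scale, y) in each of the 48 libraries (points) by group and 5-Htt label (x), with the group mean (line) and SD (bar). Oxtr stays between 6.69 and 12.3 CPM in all groups, and Avpr1a is lowest in SU labelled +/+ with a mean of 0.0749 CPM.

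**Figure D5:**
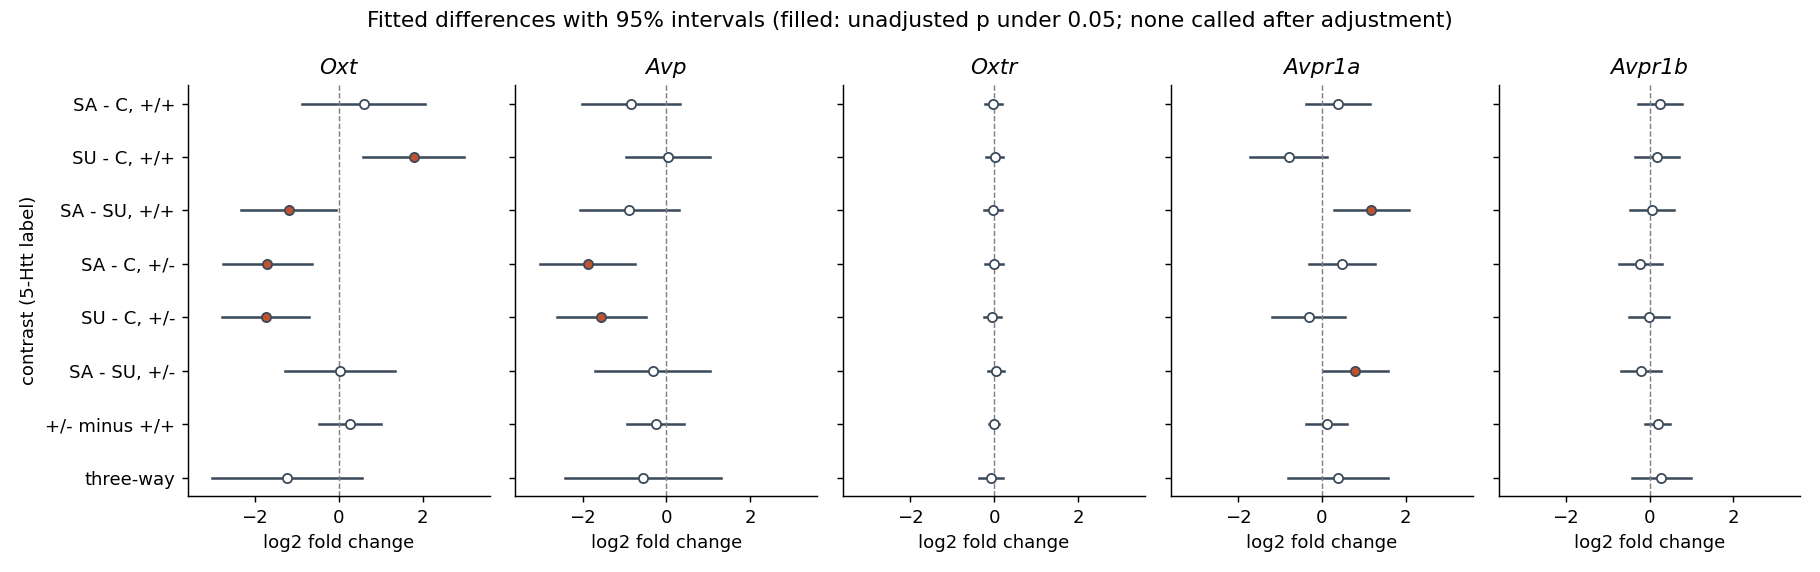
Fitted log2 fold changes (x) of the 5 genes with 95% intervals in 8 contrasts (y), with filled points where the unadjusted p was under 0.05. The intervals of Oxtr are the narrowest, and those of Oxt and Avp span several log2 units.

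The genes around the peptides and receptors were described by lists. Of 27 pathway genes, all tested, none was called in any of the 8 contrasts by edgeR or DESeq2, and 7 of 216 tests had an unadjusted p under 0.05. The list of precursor processing, release and breakdown (8 genes) holds the enzymes that mature the peptides, such as Cpe, which trims basic residues and was at 1908 ± 142 CPM, and Pam, which amidates the peptide end. The median difference of this list was between -0.04 and 0.03 log2 units in the 8 contrasts, where the median of all genes lay between -0.01 and 0.01. Lnpep, the aminopeptidase that breaks down oxytocin and vasopressin, had -0.44 for SA against SU labelled 5-Htt+/+ (SE 0.21, adjusted p = 0.999) and -0.26 between the labels (SE 0.12, adjusted p = 0.93). Cd38, needed for the release of oxytocin, was at 9.05 ± 1.06 CPM and its differences ran from -0.15 for SA against SU to 0.13 for SU against C, both labelled +/-, with no unadjusted p under 0.05.

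The list of receptor signalling (15 genes) runs from the Gq proteins Gnaq and Gna11 over phospholipase C to the arrestins and kinases that switch receptors off. Its median difference lay between -0.04 and 0.02 log2 units in the 8 contrasts. For SU against C labelled 5-Htt+/-, 1 gene of it was higher and 3 were lower at an unadjusted p under 0.05, where 15.5% of all genes reached that level. Gna11 had -0.16 (SE 0.07, adjusted p = 0.25). For SA against C of that label, the arrestin Arrb2 had -0.16 (SE 0.07, adjusted p = 0.38). The third vasopressin receptor, Avpr2, known from the kidney, was at 0.553 ± 0.199 CPM (n = 48), and its differences ran from -0.31 in the three-way contrast to 0.29 for SU against C labelled +/+. The oestrogen and progesterone receptors Esr1, Esr2 and Pgr, which respond to the hormones of the oestrous cycle, had no test with an unadjusted p under 0.05 in these contrasts.

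The genes whose levels followed those of each gene most closely were ranked by Spearman rho of log2 CPM over the 48 libraries, among the 23525 genes that reached 10 reads in 24 or more libraries. For Oxtr they were Srxn1 (0.73), Tmem28 (0.69), Gatsl2 (0.68), Dlc1 (0.68) and D430041D05Rik (0.67). For Oxt the highest values were 0.52 (Fam3a), 0.51 (Gm20406) and 0.51 (Mir6955), followed by 8030487O14Rik and Gm42981 at 0.50. Gm20406 also led the ranking for Avp, at 0.54, before Gm23473 (0.51), Tprn (0.48), Gucy2c (0.48) and Gm8812 (0.47). For Avpr1a they were Nlrp3 (0.51), B3galt4 (0.51), S100a6 (0.50), Vat1 (0.50) and Gatsl3 (0.49), and for Avpr1b Gm26776 (0.48), Mageb18 (0.47), Gm12967 (0.47), Aamdc (0.46) and Prkcd (0.46). Avp and Oxt had too few reads to be candidates for each other, and their rho of 0.58 was higher than that of any candidate with either gene. Negative values reached -0.59 with Oxt, larger in size than 0.58, and -0.52 with Avp. These are descriptions over libraries that share depth and tissue composition, with no test.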

How the data were processed

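RNA from the hippocampus of 48 female mice was sequenced. The table that the authors deposited holds raw counts as whole numbers, 1 row per gene, with no normalisation. Per the submitters' processing notes, GRCm38.p5, DESeq2, HTSeq and STAR were used, and the paper names Salmon and tximport beside STAR. Their versions and the strand and intron settings were not given in these sources. Columns were matched to libraries by their labels, and groups were taken from the labels.

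Main tests were run with edgeR 4.0.16 and alternatives with DESeq2 1.42.0 (R 4.3.3), and permutation tests in Python with scipy. The 31208 genes that reached 5 reads in 3 or more libraries were scaled by upper quartile factors and fitted with 1 mean per group. Contrasts were tested with the quasi-likelihood F test, and p-values were adjusted by Benjamini-Hochberg over all genes tested. The fit was tested on simulated data, with changes set only in genes of higher mean counts than Oxt, Avp, Avpr1a and Avpr1b. Recovery at the depth of these genes was therefore not tested. CPM is the number of reads per 1000000 of the scaled library. The permutation tests used log2 CPM with a prior count of 2. P-values measure the spread between animals, and litters could not be modelled.

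The members and gene lists were chosen with earlier results of these data known. Genes were named by rule: the 5 members in every group, their differences singly where the unadjusted p was under 0.05 and otherwise as a range, Slc6a4, called pathway genes or those of smallest p, and the 5 genes of highest rho. Alternatives were a likelihood ratio test, DESeq2, TMM and RLE scaling, other filters, only the groups compared, a replicate block and leaving out each library. An earlier form of the test, the 2 differences of effects between labels and 2 subsets of libraries were added after seeing the data. No protein sequences were used here, and 1 gene of the lists is not reported here.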

Additional observations from a re-analysis of the deposited data

Results flagged for a closer look

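In 3 groups, 1 library lay apart from the rest in Oxt. In C labelled 5-Htt+/+, replicate 2 was at 0.189 CPM (4 reads), where the other 7 libraries were at 0 to 0.0831 CPM. In SA labelled 5-Htt+/+, replicate 1 was at 0.301 CPM (5 reads), against 0 to 0.138 CPM in the others. In SU labelled 5-Htt+/-, replicate 2 was at 0.283 CPM (6 reads), against 0 to 0.139 CPM. In each case the gap to the nearest library, divided by the range of the group, exceeded Dixon's 95% critical value. In all, 30 groups of values were examined (5 genes in 6 groups). The critical value is meant for normally distributed values, which counts this low are not, so the number that chance alone would flag is not known.

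Of 4 differences of a stress effect on a peptide gene between the genotype labels, 3 had an unadjusted p under 0.05. Over all 5 genes, 1 had such a p for the SA effect and 2 for the SU effect. Of all genes tested, 5.21% and 5.65% did. The SU effect on Oxt labelled 5-Htt+/- minus that labelled 5-Htt+/+ was -3.53 log2 units (SE 0.79, adjusted p = 0.47 in edgeR's quasi-likelihood test). The SA effect on Oxt differed by -2.30 (SE 0.93, adjusted p = 0.85) and the SU effect on Avp by -1.59 (SE 0.73, adjusted p = 0.87). The SA effect on Avp differed by -1.04 (SE 0.85, adjusted p = 0.85), with an unadjusted p above 0.05. Over the other fits, the difference of the SU effect on Avp had an unadjusted p under 0.05 in 45 of 59, the likelihood ratio test and DESeq2 not among them. None passed the adjustment over 31208 genes, these contrasts were added after the data had been seen, and the first and the second share both control groups. Leaving out each library in turn kept the first between -3.94 and -3.20.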

How the results depend on the processing

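None of the 5 genes and none of the pathway genes was called in any of 59 other fits, 48 of which left out 1 library each, so that the number called was 0 throughout (lowest and highest 0). The smallest adjusted p of any of the 5 genes over these fits was 0.083. All named differences of the 5 genes kept their direction in every fit that could be made. Avpr1a and Oxt could not be tested under the stricter filter of 10 reads in 7 libraries. Only libraries with Ttr under 100 CPM moved a named difference by over 1.5 times, namely Oxt for SU against C (0.83 in place of 1.78) and SA against SU (-0.46 in place of -1.19) labelled 5-Htt+/+. TMM or RLE scaling moved group means of CPM by at most 0.9999%. With a prior count of 0.5 the number of exact permutation tests with an unadjusted p under 0.05 stayed at 7 of 30, and under the other settings of the correlations the number of pairs with an adjusted p of rho under 0.05 stayed at 1 of 10. The median of the hypothalamic marker sum was 118 CPM with Agrp and 3.93 CPM without it.

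The replicate numbers of the labels do not pair the samples. Deviations from the group means of libraries with the same number had a median correlation of -0.00 (115 pairs), and those with different numbers of 0.00 (844 pairs). With the replicate number as a block, 0 of the 5 genes were called, and Oxt differed by -1.84 (SA) and -1.87 (SU) from C labelled 5-Htt+/-. With 0 to 23 reads per library for Oxt, Avp and Avpr1a, depth limits what can be seen of these genes.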
